A study of Mus musculus with 8 samples.

Results

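The *Ptbp* family comprises 3 genes, *Ptbp1*, *Ptbp2* and *Ptbp3*, which encode the polypyrimidine tract binding proteins. The members were chosen by name, and all 3 were found among the 46078 gene identifiers of the count table and among the 13856 genes abundant enough to be tested. The family was taken up because *Ptbp2* mRNA was lower in the knockout livers in an earlier analysis of these same libraries. The genotype contrast of the 3 genes is therefore given below as a description, without a test.

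Polypyrimidine tract binding proteins bind pyrimidine-rich stretches of introns and mostly repress the inclusion of neighbouring exons. PTBP1 is made in most tissues, PTBP2 replaces it in developing neurons, and PTBP3 was first described in blood-forming cells. The family is known for controlling itself through a short exon, since PTBP1 promotes skipping of this exon in its own pre-mRNA and in that of *Ptbp2*, and the skipped product is open to nonsense-mediated decay. RBFOX2, the protein removed here, is another splicing regulator and binds GCAUG elements in introns, where its effect on an exon depends on the side of the exon that it binds.

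Polyadenylated RNA was sequenced from the livers of 8 mice on control diet, labelled chow. By the labels the mice had spent 12 weeks on that diet and were fasted for 16 h. The study's methods give another duration of the diet, and the labels were followed. LWT livers (n = 4) came from mice with loxP-flanked *Rbfox2* alleles and no Cre, and LΔRbfox2 livers (n = 4) from mice with the same alleles and Cre under the albumin promoter. The floxed alleles, the diet and the fast were thus common to both groups. The study used the albumin promoter to inactivate *Rbfox2* selectively in hepatocytes. *Rbfox2* in the other cells of the liver was not measured separately here, and the labels give no ages. Each library came from 1 liver, and the errors and P values below measure the spread between these livers.

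Library totals ranged from 37482458 to 56177588 counts assigned to genes. Scaling factors between libraries (TMM) ran from 0.724 in LΔRbfox2 replicate 3 to 1.14 in LΔRbfox2 replicate 2, and the factor of LΔRbfox2 replicate 4 was 0.776. *Rbfox2* was present at 17.1, 10.4, 11.4 and 18.3 CPM (counts scaled to a common library size) in the LWT livers and at 4.61, 6.09, 2.24 and 3.19 CPM in the LΔRbfox2 livers. The genotypes did not overlap, the log2 fold change was −1.82 (SE 0.32), and the edgeR quasi-likelihood test gave an unadjusted P of 2.2e-04 and a Benjamini-Hochberg adjusted P of 0.504. By that test none of the 13856 genes (0.0%) passed an adjusted P of 0.05, whereas 1356 (9.79%) had an unadjusted P under 0.05 and DESeq2 called 10 genes (0.0722%). The hepatocyte markers *Alb*, *Apoa1*, *Ttr*, *Cyp2e1* and *Hnf4a* summed to 44176 to 66884 CPM in LWT and 49671 to 69703 CPM in LΔRbfox2, so the defining markers of the labelled tissue were present in both.

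The short exon whose skipping PTBP1 promotes in *Ptbp1* and *Ptbp2* is shown for the 3 genes. Coordinates are on GRCm38 and sequences were read from the GENCODE M21 transcripts. In *Ptbp1* it is exon 9 of 13 of a coding transcript (chr10:79862014-79862047, plus strand). In *Ptbp2* it is exon 10 of 14 (chr3:119724612-119724645, minus strand). In *Ptbp3* the exon at the matching place is exon 10 of 14 (chr4:59485339-59485372, minus strand), and control of *Ptbp3* through it was not examined. Capitals mark the 34-base exon, and lower case marks 20 bases of the exon before it and 20 of the exon after it in the spliced mRNA.
Ptbp1: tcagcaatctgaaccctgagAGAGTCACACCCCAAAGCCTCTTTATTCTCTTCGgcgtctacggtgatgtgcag
Ptbp2: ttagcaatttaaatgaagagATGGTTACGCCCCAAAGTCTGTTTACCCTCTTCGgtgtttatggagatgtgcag
Ptbp3: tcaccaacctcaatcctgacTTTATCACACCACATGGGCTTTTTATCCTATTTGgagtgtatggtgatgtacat

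The exon was 34 bases long in all 3 genes, which leaves a remainder of 1 base on division by 3, so that its loss shifts the reading frame. *Ptbp1* and *Ptbp2* shared 26 of 34 bases (76.5%), *Ptbp1* and *Ptbp3* 22 (64.7%), and *Ptbp2* and *Ptbp3* 21 (61.8%). The 3 exons that follow were also equal in length between the genes, at 93, 217 and 78 bases. Identity in the 93-base exon was 74.2% to 77.4%, in the 217-base exon 72.4% to 73.3%, and in the 78-base exon 62.8% to 64.1%. The short exon of *Ptbp1* and *Ptbp2* was thus about as alike as the longer exons beside it, while that of *Ptbp3* stood further from both. The longest identical run anywhere in the transcripts was 15 bases for *Ptbp1* and *Ptbp2*, 20 for *Ptbp1* and *Ptbp3* and 21 for *Ptbp2* and *Ptbp3*.

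Annotated products of the exon differed among the paralogues. Of the annotated *Ptbp1* transcripts, 4 held the exon (3 coding and 1 with a retained intron) and 2 skipped it, both of them classed as targets of nonsense-mediated decay. For *Ptbp2*, 3 coding transcripts held it and 2 skipped it, again both classed as decay targets. For *Ptbp3*, 9 transcripts held it and none was listed that skipped it. The deposited values are counts per gene, so inclusion of the exon itself was not measured here, and a skipped transcript that escaped decay would add to its gene's count.

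**Figure D1:**
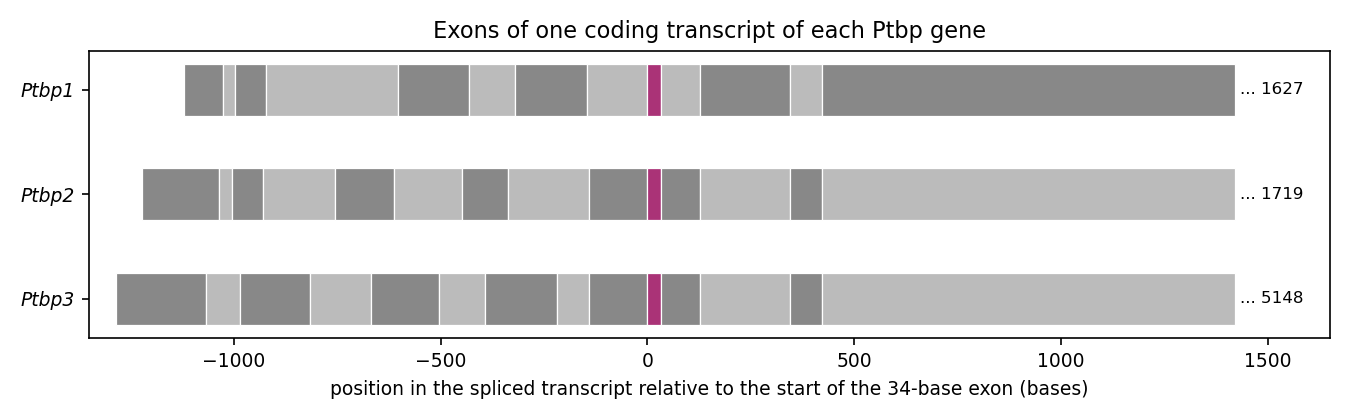
Exon structure of one coding transcript of each *Ptbp* gene, with position in the spliced transcript in bases from the start of the 34-base exon (magenta) on the x axis and the other exons in alternating greys, a long last exon being cut short with its full length written beside it. The short exon is followed by exons of 93, 217 and 78 bases in all 3 genes.

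The DNA form of the RBFOX element, GCATG, was searched on the transcribed strand in the first 200 intron bases after those 5′ splice sites that an annotated transcript reads through. Over all genes, 3415 of 18019 such windows (19.0%) held at least 1 GCATG and 82 (0.455%) held at least 3. The window after the short exon of *Ptbp1* held 3, starting 142, 158 and 187 bases after the exon. They are printed for the region from base 132 to base 200 (chr10:79862179-79862247, plus strand), with GCATG in capitals.
Ptbp1 intron: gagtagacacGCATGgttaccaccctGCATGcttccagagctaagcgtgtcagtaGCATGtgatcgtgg

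Of the other windows that could be read in the family, *Ptbp1* after exon 3 held 1 GCATG, *Ptbp2* after exon 7 held 1, and *Ptbp2* after exon 8 and *Ptbp3* after exon 5 held none. The introns beside the short exon of *Ptbp2* and *Ptbp3* were not analysed here. The study itself lists *Ptbp2* among the direct RBFOX2 targets found by crosslinking in mouse hepatocytes. Where on *Ptbp2* that binding lies was not examined here. The 200-base window was set after the positions in *Ptbp1* were seen. The shares over all genes therefore do not measure how unusual the *Ptbp1* window is. The matches describe the letters only, not sites that a protein occupies.

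*Ptbp2* mRNA was lower in LΔRbfox2 than in LWT livers. Its raw counts were 268, 289, 272 and 273 in the LWT livers and 108, 171, 57 and 110 in the LΔRbfox2 livers. After scaling, the LWT livers held 7.002, 5.81, 5.66 and 6.29 CPM (6.19 ± 0.606, SD, n = 4). The LΔRbfox2 livers held 2.47, 2.67, 1.66 and 3.41 CPM (2.55 ± 0.719, SD, n = 4). Every LΔRbfox2 liver lay below every LWT liver, and the highest knockout value, replicate 4, was still under the lowest wild-type value, replicate 3. A separation of this kind, toward lower values, was seen in 1.23% of the tested genes (2.28% in either direction), a share from which nothing is read because *Ptbp2* was chosen on this contrast. The log2 fold change was −1.28 (SE 0.23), and 0.779% of the tested genes had a lower one.

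Among the LWT livers *Ptbp2* CPM had a coefficient of variation of 9.79%, beside a counting error of 5.88% to 6.11% per liver. Among the LΔRbfox2 livers it was 28.2%, beside a counting error of 7.65% to 13.2%. In CPM, which is not corrected for gene length, 39.8% of the tested genes had a lower mean than *Ptbp2*.

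*Ptbp1* overlapped between the genotypes. The LWT livers held 43.4, 24.4, 41.0 and 47.8 CPM (39.1 ± 10.3, SD, n = 4). The LΔRbfox2 livers held 41.1, 37.9, 20.9 and 32.4 CPM (33.1 ± 8.88, SD, n = 4). The low values were those of LWT replicate 2 and LΔRbfox2 replicate 3, 1 liver of each genotype. The log2 fold change was −0.24 (SE 0.27), and it was −0.41 without LWT replicate 2 and −0.11 without LΔRbfox2 replicate 3.

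*Ptbp3* was the least variable member. The LWT livers held 50.8, 44.0, 44.7 and 42.8 CPM (45.6 ± 3.59, SD, n = 4). The LΔRbfox2 livers held 52.7, 47.6, 44.8 and 40.5 CPM (46.4 ± 5.08, SD, n = 4). The knockout livers held both the highest and the lowest value, and the wild-type livers lay between them. The log2 fold change was 0.026 (SE 0.15), and its sign turned under other scalings, with a range of −0.040 to 0.023 over the alternative settings that kept all livers.

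**Figure D2:**
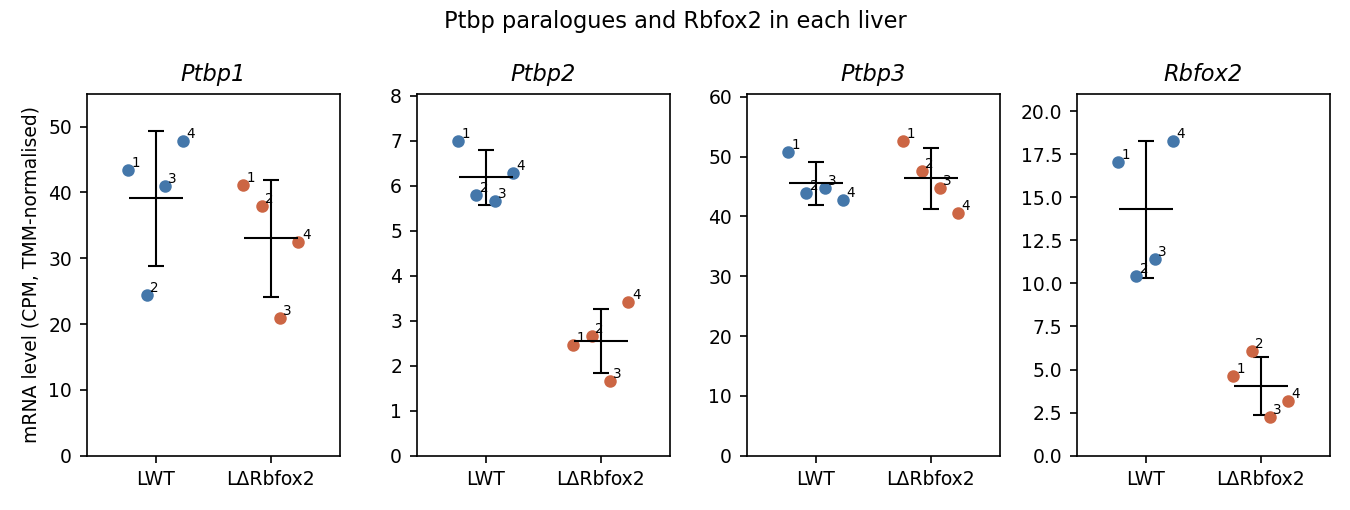
mRNA level in CPM (y axis, TMM-normalised, each panel from 0) of *Ptbp1*, *Ptbp2*, *Ptbp3* and *Rbfox2* in LWT and LΔRbfox2 livers, with points for livers labelled by replicate number and black bars for the mean ± SD (n = 4). *Ptbp2* ran from 5.66 to 7.002 CPM in LWT and from 1.66 to 3.41 CPM in LΔRbfox2, whereas the genotypes overlapped for *Ptbp1* and *Ptbp3*.

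Because the genes differ in length, levels were compared between them only after division by the length of all annotated exons, which was 4740 bases for *Ptbp1* (ENSMUSG00000006498, chr10:79854427-79864771), 9175 for *Ptbp2* (ENSMUSG00000028134, chr3:119718742-119784466) and 7480 for *Ptbp3* (ENSMUSG00000028382, chr4:59471868-59549364). On this scale the mean level in LWT livers was 8.26 ± 2.16 CPM per kb for *Ptbp1*, 6.09 ± 0.480 for *Ptbp3* and 0.674 ± 0.0660 for *Ptbp2* (SD, n = 4). In LΔRbfox2 livers the levels were 6.98 ± 1.87, 6.20 ± 0.680 and 0.278 ± 0.0783 CPM per kb, respectively. *Ptbp2* was the lowest of the 3 in all 8 livers under every length tried. The order of *Ptbp1* and *Ptbp3* depended on the length chosen. With all exons the spreads of both genes overlapped and *Ptbp1* was the higher in 3 of 4 LWT and 3 of 4 LΔRbfox2 livers, the exceptions being LWT replicate 2 and LΔRbfox2 replicate 3. With the longest annotated transcript *Ptbp1* was the higher in 4 of 4 livers of each genotype, and with raw counts, which are not corrected for length, *Ptbp3* was the higher in 3 of 4 LWT and 4 of 4 LΔRbfox2 livers.

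The levels per length were next expressed as shares of the family total within each liver, a quantity that does not depend on the scaling between libraries. *Ptbp2* made up 4.57%, 5.43%, 4.05% and 4.15% of the total in LWT livers (4.55 ± 0.629, SD). It made up 1.68%, 1.99%, 1.71% and 2.94% in LΔRbfox2 livers (2.08 ± 0.588, SD), again without overlap. The size of the share depended on the length chosen. The mean *Ptbp2* share was 7.58% in LWT and 3.56% in LΔRbfox2 with the longest annotated transcript, and 6.86% and 3.13% with raw counts. *Ptbp1* and *Ptbp3* together thus supplied most of the family total in both genotypes under each of these lengths.

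*Ptbp1* accounted for 54.8%, 44.1%, 56.7% and 61.2% of the total in LWT livers and 54.2%, 54.6%, 41.6% and 54.2% in LΔRbfox2 livers. *Ptbp3* accounted for 40.7%, 50.4%, 39.2% and 34.7% in LWT and 44.1%, 43.4%, 56.7% and 42.9% in LΔRbfox2. Both shares overlapped between the genotypes, and their differences in means moved with single livers. The *Ptbp1* difference, −3.05 percentage points, was 0.126 without LΔRbfox2 replicate 3, −0.72 without LWT replicate 4 and −6.41 without LWT replicate 2. The *Ptbp3* difference, 5.52 points, was 2.22, 3.33 and 8.59 without the same livers.

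**Figure D3:**
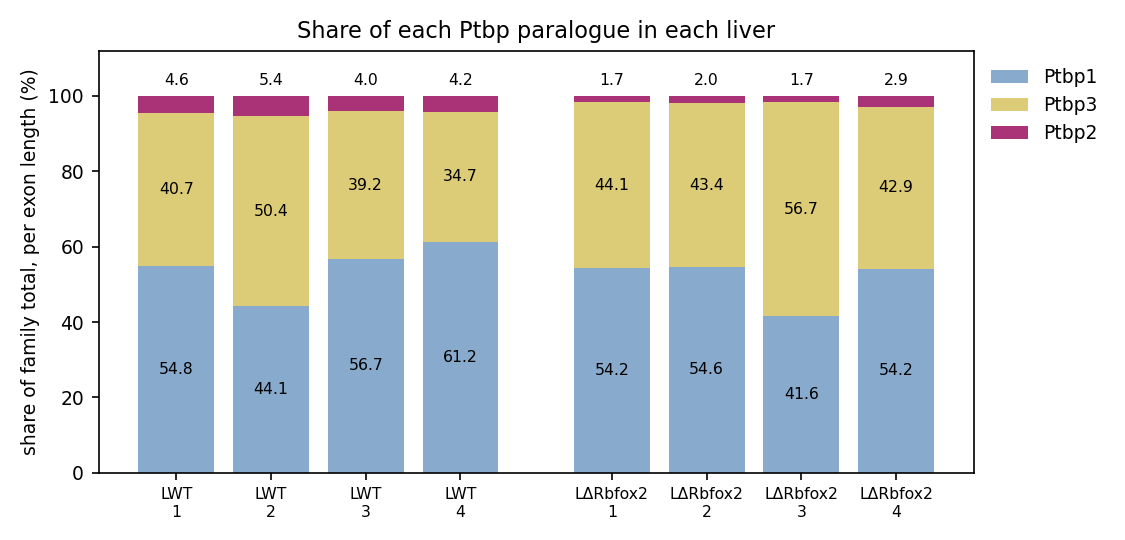
Share of the *Ptbp* family total (y axis, %, CPM per kb of exon, stacked from 0) taken by *Ptbp1*, *Ptbp3* and *Ptbp2* in each liver (x axis, genotype and replicate), with the *Ptbp2* share written above each bar. *Ptbp2* took 4.05% to 5.43% in LWT and 1.68% to 2.94% in LΔRbfox2, and LΔRbfox2 replicate 3 had the lowest *Ptbp1* share of its group at 41.6%.

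Ratios between paralogues within a liver re-express the same counts on a log2 scale. The *Ptbp2* to *Ptbp3* ratio per length was −3.18 ± 0.0915 in LWT (range −3.28 to −3.06) and −4.52 ± 0.499 in LΔRbfox2 (range −5.05 to −3.87). The *Ptbp2* to *Ptbp1* ratio was −3.57 ± 0.389 in LWT (range −3.88 to −3.02) and −4.65 ± 0.340 in LΔRbfox2 (range −5.01 to −4.20). Neither ratio overlapped between the genotypes. As with the shares, nothing is read from this separation, because *Ptbp2* was chosen on this contrast. The *Ptbp1* to *Ptbp3* ratio did overlap, at 0.40 ± 0.43 in LWT and 0.13 ± 0.38 in LΔRbfox2. The family total was 90.9 ± 11.9 CPM in LWT and 82.0 ± 12.7 CPM in LΔRbfox2 (SD, n = 4), with ranges of 74.1 to 101 and 67.3 to 96.2 CPM that overlapped.

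Genes that overlap the family on the genome contributed few counts. Opposite-strand neighbours shared exon bases with *Ptbp1* (*E130317F20Rik*, 295 bases, 5 to 30 counts per liver, together with *Gm17134* and *Plppr3*, with at most 6) and with *Ptbp3* (*1700018M17Rik*, 207 bases, at most 3 counts). In *Ptbp2* the annotated neighbours *Gm42664* and *Gm43300* lie within introns, share no exon bases and held at most 17 and 21 counts, which came to 2.71% and 4.46% of the *Ptbp2* count. The study's methods name a strand-specific setting for the alignment, but whether strand was used in counting is not given in the sources used here.

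Covariation over the 8 livers was examined as a description, with Pearson r of log2 CPM and all points sharing their libraries, depths and genotypes. *Ptbp2* and *Rbfox2* had an r of 0.92, and 99.9% of the tested genes had a lower r with *Ptbp2*. This value contains the genotype difference of both genes, and after the genotype means were subtracted r was 0.52, with 89.7% of genes lower. After the same subtraction *Ptbp1* and *Rbfox2* had an r of 0.83, *Ptbp1* and *Ptbp2* 0.57, *Ptbp1* and *Ptbp3* 0.37, and *Ptbp2* and *Ptbp3* −0.087. Of the tested genes, 92.5% had a lower r with *Ptbp2* than *Ptbp1* had, and 36.8% a lower one than *Ptbp3* had. With *Ptbp1*, 92.5% of the tested genes had a lower r than *Rbfox2* had. The shares were 74.5% for *Ptbp2* and 64.2% for *Ptbp3*.

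The genes whose pattern was most like each member were taken from those with the highest r among the 13856 tested. For *Ptbp1* these were *Apc* (0.988), *Rora* (0.987), *Ppp2r5d* (0.987), *Larp1b* (0.985) and *Sh3d19* (0.979), and for *Ptbp2* *Leng9* (0.946), *Acsm5* (0.942), *Hirip3* (0.928), *Rai14* (0.924) and *Sgsm1* (0.924). For *Ptbp3* they included *Klf2* (0.954), *Faap20* (0.907), *Pik3r6* (0.903) and *Fam43a* (0.900). After the genotype means were subtracted, *Rora*, *Larp1b*, *Ppp2r5d*, *Apc* and *Nfia* led for *Ptbp1* (0.986 to 0.989) and *Rai14*, *Mllt11*, *Mybl1*, *Soga1* and *Mtf2* for *Ptbp2* (0.935 to 0.968), while those for *Ptbp3* included *Faap20*, *Ptpdc1*, *Klf2* and *Hlx* (0.961 to 0.982). Of the 5 leading genes of *Ptbp1*, 4 were kept by the subtraction, and of the 5 of *Ptbp2* only *Rai14* was. Nothing is read from this contrast, because *Ptbp2* was chosen on its genotype difference, which the subtraction removes. The log2 fold change was −1.28 for *Ptbp2* and −0.24 for *Ptbp1*. The leading genes were picked for the highest r among 13856, so their r values are high partly by that selection and were not tested.

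The other genes of the pathway were read from lists, and their genotype contrast was tested. Of 12 proteins that bind polypyrimidine tract binding proteins or act beside them on exons, 11 were tested and 2 had an unadjusted P under 0.05, both higher in LΔRbfox2 (18.2%, against 7.95% of all genes higher). *Pspc1*, a paraspeckle protein, was at 2.52 ± 0.473 CPM in LWT and 3.84 ± 0.987 CPM in LΔRbfox2 (log2 fold change 0.61, SE 0.25). *Mbnl1*, an RNA-binding protein that regulates alternative exons, was at 48.5 ± 1.85 and 64.9 ± 12.3 CPM (log2 fold change 0.42, SE 0.17). The genotypes did not overlap for either gene, a pattern found toward higher values in 1.05% of the tested genes, but neither passed the correction over all genes (edgeR adjusted P = 0.504 for both). The count of 2 was 0 without LWT replicate 1, LWT replicate 4 or LΔRbfox2 replicate 3, 1 without LWT replicate 3 or LΔRbfox2 replicate 4, and 4 without LΔRbfox2 replicate 2.

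The best known co-repressors of the family gave no call. *Raver1*, which encodes a protein that binds PTBP1, was at 10.3 ± 2.62 CPM in LWT and 7.66 ± 3.15 CPM in LΔRbfox2 (log2 fold change −0.43, SE 0.32). *Matr3*, a nuclear matrix protein that binds PTBP1, was at 37.4 ± 3.12 and 47.3 ± 8.75 CPM (log2 fold change 0.34, SE 0.18). *Hnrnpl* and *Hnrnpll*, relatives of the family with the same kind of RNA-binding domain, were at 46.0 and 43.4 CPM and at 16.0 and 16.7 CPM in LWT and LΔRbfox2, respectively. *Raver2* was too low to test, with 0 to 7 counts per liver. The median log2 fold change of the list was 0.024, beside −0.015 over all genes.

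Factors of nonsense-mediated decay, the pathway of the transcripts lacking the short exon, gave 1 call among 15 tested genes (6.67%, against 9.79% of all genes in either direction and 7.95% higher). This was *Magoh*, a core subunit of the exon junction complex, at 8.56 ± 2.41 CPM in LWT and 14.99 ± 5.20 CPM in LΔRbfox2, with overlap between the genotypes (log2 fold change 0.81, SE 0.29, edgeR adjusted P = 0.504). *Upf1*, the central helicase of the pathway, was at 25.99 ± 6.62 and 21.5 ± 9.40 CPM (log2 fold change −0.27, SE 0.31). *Smg1*, the kinase that phosphorylates UPF1, was at 34.8 ± 17.7 and 26.4 ± 8.06 CPM (log2 fold change −0.40, SE 0.37). The list median was −0.20, and the single call was lost without LWT replicate 4 or LΔRbfox2 replicate 4 and became 3 without LΔRbfox2 replicate 2.

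Genes with exons known to respond to polypyrimidine tract binding proteins gave 1 call among 12 tested genes (8.33%, against 9.79% of all genes in either direction and 1.83% lower). *Flna*, encoding the actin crosslinker filamin A, was at 6.75 ± 0.946 CPM in LWT and 4.80 ± 0.971 CPM in LΔRbfox2, with overlap (log2 fold change −0.49, SE 0.21, edgeR adjusted P = 0.504). *Pkm*, whose mutually exclusive exons give the M1 and M2 forms of pyruvate kinase, was at 5.24 ± 0.806 and 4.05 ± 0.764 CPM (log2 fold change −0.37, SE 0.21). *Clta*, encoding a clathrin light chain, was at 48.3 ± 11.4 and 69.7 ± 18.5 CPM (log2 fold change 0.53, SE 0.25). *Dlg4*, which encodes the synaptic scaffold PSD-95, was low with 4 to 23 counts per liver. These are total levels of each gene, so that a change in the use of an exon would not be seen in them. The list median was −0.19, and the call was lost without any 1 of 5 livers (LWT replicates 1, 3 and 4 and LΔRbfox2 replicates 3 and 4). It became 3 calls without LWT replicate 2 and 4 without LΔRbfox2 replicate 2.

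**Figure D4:**
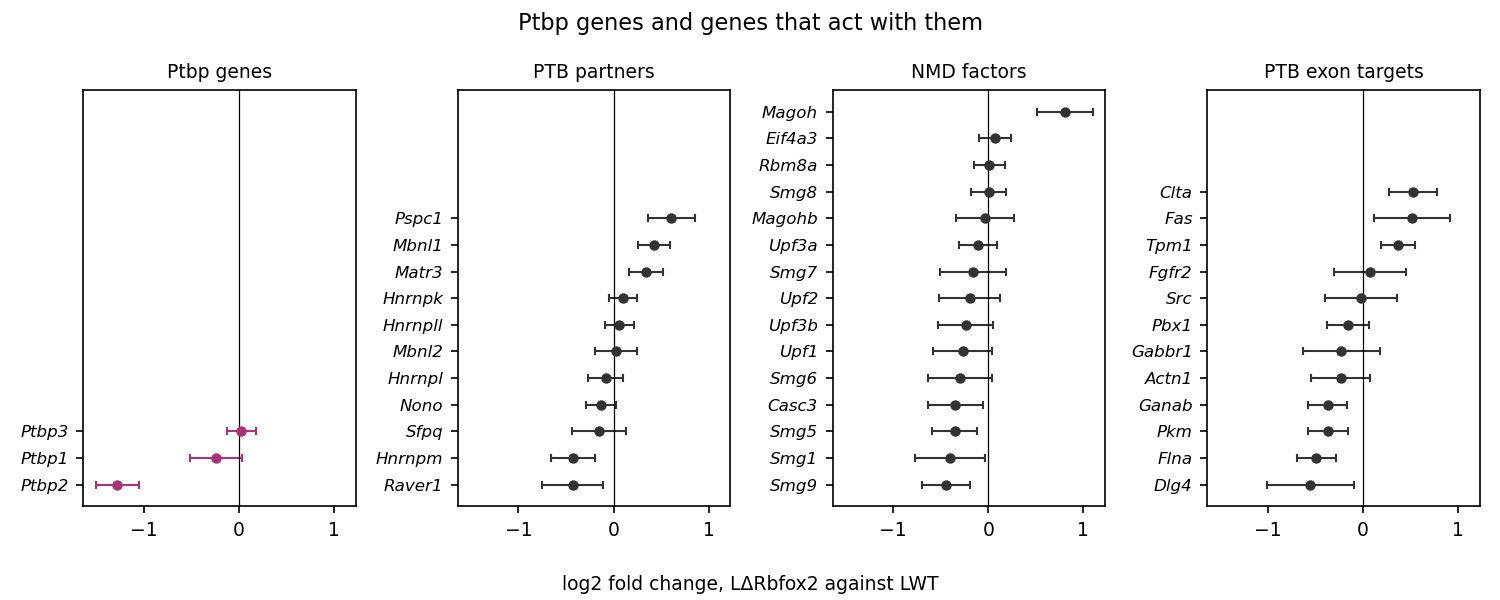
Log2 fold change of LΔRbfox2 against LWT livers (x axis, points with bars of ± 1 SE) for the *Ptbp* genes and for tested genes of 3 lists, namely partners of polypyrimidine tract binding proteins, nonsense-mediated decay factors and genes with responsive exons. *Ptbp2* lies at −1.28, whereas *Ptbp1*, *Ptbp3* and the list members lie between −0.55 and 0.81.

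Markers of other liver cells were summed beside these values, since in bulk liver fewer cells of a type and less RNA per cell cannot be told apart. Of 5 Kupffer cell and macrophage markers, 3 were lower in LΔRbfox2 at an unadjusted P under 0.05, namely *Clec4f* (log2 fold change −0.73), *Cd68* (−0.77) and *Csf1r* (−0.94), against 1.83% of all genes lower. The other markers of this list, *Adgre1* (−0.098) and *Vsig4* (−0.26), did not pass that P. The sum of all 5 markers ran from 43.0 to 74.2 CPM in LWT and from 25.8 to 45.1 CPM in LΔRbfox2. Of 3 erythroid markers tested, 2 were higher, *Hba-a1* (0.68) and *Hbb-bs* (1.38), against 7.95% of all genes higher, and the erythroid sum ran from 233 to 435 and from 372 to 932 CPM. No marker passed that P for endothelial cells (56.6 to 72.8 and 47.3 to 63.1 CPM), stellate cells (58.9 to 119 and 75.1 to 119 CPM), cholangiocytes (14.6 to 25.8 and 16.4 to 60.9 CPM) or lymphoid and granulocytic cells (2.58 to 4.08 and 1.73 to 4.18 CPM). Of the 5 markers of each, all were tested for endothelial and stellate cells and 4 for cholangiocytes. Only 1 was abundant enough to test for lymphoid and granulocytic cells. The tested markers of these cells with the smallest P had log2 fold changes of −0.62 for *Stab2*, −0.29 for *Pecam1* and −0.19 for *Kdr* (endothelial), −0.59 for *Pdgfrb*, −0.38 for *Des* and 0.33 for *Dcn* (stellate), 0.83 for *Spp1*, 0.70 for *Epcam* and 0.37 for *Krt19* (cholangiocyte) and −0.28 for *Ptprc* (lymphoid and granulocytic). Among the hepatocyte markers these were *Apoa1* (0.36), *Hnf4a* (−0.23) and *Ttr* (0.35).

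Neuronal markers were examined because *Ptbp2* is best known from neurons. The sum of 5 markers was 2.25 to 4.77 CPM in LWT and 1.36 to 3.50 CPM in LΔRbfox2, of which *Syt1* contributed a mean of 3.15 and 2.25 CPM, while *Snap25*, *Tubb3* and *Elavl4* were at or near 0. *Rbfox3*, a paralogue of the deleted gene, averaged 0.347 and 0.199 CPM and was the 1 marker of 2 tested that was lower at an unadjusted P under 0.05, against 1.83% of all genes lower. The part that any of these cell types had in the *Ptbp2* difference was not tested.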

How the data were processed

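Livers of 4 LWT and 4 LΔRbfox2 mice were grouped by the genotype and diet in the labels, and 1 library was made per liver from polyadenylated RNA. The authors deposited whole-number counts per gene, and the submitters' processing notes name CASAVA 1.8.4, TopHat2 2.0.11, featureCounts and the GRCm38 build. Of 46078 identifiers, 45143 matched GENCODE M21, from which exon lengths, coordinates and transcript sequences were read. Reads that matched several genes may be missing from the counts, and how they were treated is not given in the sources used here.

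The *Ptbp* genes and all lists were chosen with earlier results of these data known. Genes were kept with edgeR's filter (minimum count 10, minimum total 15), leaving 13856. The genotype effect was fitted on all of them with edgeR 4.0.16 (TMM factors, quasi-likelihood test, two-sided, Benjamini-Hochberg adjustment at 0.05) in R 4.3.3. Standard errors came from limma-voom (limma 3.58.1), and DESeq2 1.42.0 was an alternative. Log2 CPM used a prior count of 2. A count of 3 corresponded to 0.0468 to 0.0929 CPM, and counting error covers sequencing depth only.

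Named genes were the 3 *Ptbp* genes, *Rbfox2*, list members with an unadjusted P under 0.05 or else the 3 with the smallest P, the 5 genes most alike each member and overlapping genes. A result that this rule names for *Ptbp3* is not reported here. *Raver1*, *Raver2*, *Matr3*, *Hnrnpl*, *Hnrnpll*, *Upf1*, *Smg1*, *Pkm*, *Clta*, *Dlg4* and *Syt1* were named for their roles after their values were seen. Alternatives were DESeq2 size factors, upper-quartile factors, no filter, limma-voom, DESeq2, a replicate block, a GC and length correction (lowess span 0.3), other gene lengths and omission of each liver.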

Additional observations from a re-analysis of the deposited data

Results flagged for a closer look

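Over 14 groups of 4 livers, Dixon's ratio was examined for a single liver set apart from the other livers of its genotype, and it passed in 2, where chance gives about 1 in 20, or 0.7. The *Ptbp1* share of the family total was 41.6% in LΔRbfox2 replicate 3, against 54.2% to 54.6% in the other LΔRbfox2 livers. The *Ptbp3* share was 56.7% in the same liver, against 42.9% to 44.1%. The shares sum to 100% in a liver, so these are a single pattern seen from both sides. This library also had the lowest TMM factor, 0.724, and what sets it apart was not tested.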

How the results depend on the processing

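Of 152 values computed under alternative settings, 125 kept their side of the threshold or stayed close to the main value. A further 26 moved further and 1 passed the threshold. Closeness was judged by the spread between livers for fold changes and shares, and by the ratio to the main count for numbers of genes. Of the values that moved, 3 were differences in *Ptbp2* share and the others were numbers of genes. No called value changed sign, but the small *Ptbp3* log2 fold change did, at −0.012 with upper-quartile factors, −0.0066 without the filter and −0.040 with the GC and length correction, and so did the *Ptbp1* share without LΔRbfox2 replicate 3. With DESeq2 the *Rbfox2* log2 fold change of −1.82 passed the adjusted threshold, and 10 genes were called in place of 0; leaving out single livers gave 0 throughout for edgeR. The *Ptbp2* difference in share, −2.47 percentage points, was −3.73 with raw counts, −4.02 with the longest transcript and −3.58 with the mean coding transcript, the last chosen after seeing the data. The genotypes did not overlap under any of them. All of them use the same counts, and nothing is read from the separation, because *Ptbp2* was chosen on this contrast. Numbers of partners at an unadjusted P under 0.05 were 1 with upper-quartile factors and 1 without the filter, in place of 2, and exon targets were 2 with DESeq2 in place of 1; the cause was not tested. Upon leaving out single livers, log2 fold changes ranged from −2.09 to −1.64 for *Rbfox2*, −0.41 to −0.11 for *Ptbp1*, −1.44 to −1.15 for *Ptbp2* and −0.035 to 0.090 for *Ptbp3*. Differences in share ranged from −6.41 to 0.126, −2.76 to −2.18 and 2.22 to 8.59 points for *Ptbp1*, *Ptbp2* and *Ptbp3*, and numbers of list members from 0 to 4 for partners, 0 to 3 for decay factors and 0 to 4 for exon targets.

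Same-numbered livers came from different animals, and their deviations did not go together (r = 0.13, −0.61, 0.12 and −0.51). A replicate block lowered the genes at an unadjusted P under 0.05 from 1356 to 335 and the counts of partners, decay factors and exon targets to 0 each, and gave log2 fold changes of −1.88 for *Rbfox2*, −0.25 for *Ptbp1*, −1.31 for *Ptbp2* and 0.023 for *Ptbp3*. Depth limits *Ptbp2* most in LΔRbfox2 replicate 3, where 57 counts carry a counting error of 13.2%.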
